A study of Homo sapiens with 6 samples.

Results

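The imprinted growth-control genes are 10 genes that are read mainly from the copy inherited from 1 parent and that act on growth, the cell cycle or differentiation: H19, IGF2, MEG3, PEG3, PEG10, CDKN1C, NDN, MAGEL2, GRB10 and PLAGL1. They were chosen by name, through array probe sets whose annotation gives that symbol and no other. By this rule 8 of the 10 were measured, among 19775 measured genes, whereas H19 and IGF2 are carried by probe sets that are listed under another transcript as well. SH-SY5Y cells, a human neuroblastoma (NB) line that bears the ALK F1174L mutation, were compared with SY5Y-TR1 cells, 1 resistant subclone expanded from the same line after long exposure to the ALK inhibitor TAE684. Both lines therefore share the ALK mutation. SY5Y-TR1 cells were kept in 1 μM TAE684 and SH-SY5Y cells in medium alone, so the selected subclone and the drug in the medium cannot be told apart. RNA of each line was measured on 3 Affymetrix U133 Plus arrays, and the log2 signals had been computed by robust multi-array average (RMA). The labels call the 3 arrays biological replicates without describing the cultures, and p-values measure the spread between these samples, which may be technical.

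Imprinted genes depend on DNA methylation marks that are set in the germline on either the maternal or the paternal copy. Many of them lie in clusters with a shared control region, and a loss or gain of the mark can alter several genes of a cluster at the same time. In the sympathoadrenal lineage, from which NB arises, H19, IGF2, DLK1 and MEG3 belong to the fetal programme. The arrays measure the sum of both copies and do not show which of them was read.

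The median log2 signal ran from 5.56 to 5.59 over the 6 arrays, and Pearson's r over probe sets was 0.997 to 0.998 within a line and 0.959 to 0.960 between lines. The table gives no detection p, so 6.33 served as the background level on the log2 scale, which is where the 90th percentile of 35 genes that belong to unrelated tissues lay. Calls of higher and lower required a fold change of at least 2 together with a Benjamini-Hochberg adjusted p under 0.05 from limma. All 2245 genes past this fold also passed the p limit, so the fold limit decided the calls. Of 12 measured neuroblast markers 11 were above the background level on at least 3 arrays. In SY5Y-TR1 cells 8 of the 12 were called lower, and the mean log2 signal of the list fell from 10.19 to 10.23 on the SH-SY5Y arrays to 7.79 to 7.92 on the SY5Y-TR1 arrays. TH, the first enzyme of catecholamine synthesis and a defining marker, read 3.59 to 3.82 on all arrays and was under the background level. None of the 3 Schwann cell, 6 blood cell and 7 endothelial markers that could be measured lay above the background level on 3 arrays. None of these reached the fold limit, so neither limma nor the methods' t-test with that limit could call them. At any fold 0, 2 and 4 of them had an unadjusted limma p under 0.05. In RNA from whole cultures, fewer cells that express a gene and less RNA per cell cannot be told apart.

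Of the 8 measured members, CDKN1C, PEG10 and PEG3 were lower in SY5Y-TR1 cells, GRB10 was higher and 4 did not pass. Over all genes 5.99% were called lower and 5.36% higher. The median log2 fold change was -0.06 over the 8 members and 0.04 over all genes, where the members' median lies between MAGEL2 and NDN, both under the background level on all arrays. The members were also grouped by the parental copy listed for each, which was not measured in these cells. Of the 5 measured members listed as paternal, 2 were lower and 3 did not pass. Of the 3 listed as maternal, with GRB10 among them, 1 was lower, 1 higher and 1 did not pass.

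**Figure D1:**
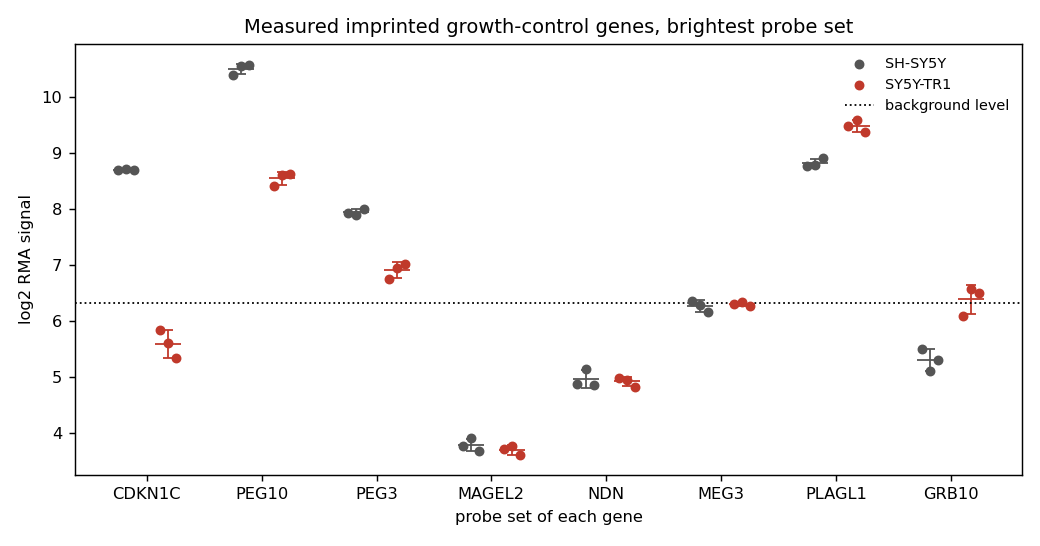
Log2 RMA signal (y axis) of the brightest probe set of each measured member on each array, in order of log2 fold change; SH-SY5Y arrays are grey points and SY5Y-TR1 arrays red ones (3 each), with mean and SD as bars, and 6.33, the background level, is dotted. CDKN1C falls from 8.70 to 5.60, under the dotted line, whereas NDN and MAGEL2 lie under it in both lines.

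CDKN1C, which encodes the cyclin-dependent kinase inhibitor p57, showed the largest decrease of the 8. It read 8.69, 8.71 and 8.69 on the SH-SY5Y arrays and 5.84, 5.61 and 5.34 on the SY5Y-TR1 arrays. The lines did not overlap, and all SY5Y-TR1 values lay under the background level, so that the gene was at least 5.18-fold lower (log2 fold change -3.10, standard error 0.12, limma adjusted p = 8.21e-07). Among its 5 probe sets, 4 were called lower, with log2 fold changes from -3.10 to -1.51. The fifth was under the background level in both lines (means 4.55 and 4.56). With all 5 averaged, the log2 fold change of CDKN1C was -1.76, still called.

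PEG10, a retrotransposon-derived gene of placental growth, read 10.39, 10.54 and 10.56 in SH-SY5Y and 8.41, 8.61 and 8.62 in SY5Y-TR1 cells. The lines did not overlap, and PEG10 stayed above the background level on all 6 arrays while falling 3.86-fold (log2 fold change -1.95, standard error 0.08, limma adjusted p = 9.77e-07). Its second probe set was also called lower, with a log2 fold change of -1.67 (standard error 0.08).

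PEG3 encodes a zinc-finger protein linked to p53-mediated cell death and to maternal behaviour in mice. Its log2 signal was 7.93, 7.89 and 8.0 in SH-SY5Y and 6.75, 6.95 and 7.03 in SY5Y-TR1 cells, again without overlap. PEG3 was 2.04-fold lower (log2 fold change -1.03, standard error 0.08, limma adjusted p = 2.57e-05), close to the fold limit. The call was lost without SY5Y-TR1 replicate 1 (-0.95) and with the mean of its 2 probe sets (-0.84), since the dimmer one had a log2 fold change of -0.66.

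GRB10, an adaptor that binds the insulin and IGF1 receptors and restrains their signal, was the member called higher. It read 5.51, 5.11 and 5.30 in SH-SY5Y cells, all under the background level, and 6.09, 6.56 and 6.51 in SY5Y-TR1 cells, where replicate 1 was under it too. GRB10 thus had a log2 fold change of 1.08 with a standard error of 0.15 (limma, adjusted p = 0.000669), but the increase over the background level was at least 1.04-fold only. GRB10 lost its call with values raised to the background level (log2 fold change 0.14), with the mean of its 4 probe sets (0.40), and without SH-SY5Y replicate 2 (0.98) or SY5Y-TR1 replicate 2 (0.99). The other 3 probe sets lay under the background level in both lines.

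PLAGL1, a zinc-finger transcription factor that arrests the cell cycle and regulates other imprinted genes, did not pass the fold limit. Its log2 signal was 8.76, 8.78 and 8.91 in SH-SY5Y and 9.48, 9.58 and 9.38 in SY5Y-TR1 cells. The lines did not overlap, and the log2 fold change was 0.66 (95% confidence interval 0.50 to 0.83, adjusted p = 0.000144 from limma), which is 1.58-fold. The other 2 probe sets read 0.83 and 0.62, and the names of all 3 mark sequence that may be shared with other transcripts.

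MEG3, a long non-coding RNA with growth-suppressing activity, has 10 probe sets, of which none was above the background level on 3 arrays or called. The brightest read 6.36, 6.29 and 6.16 in SH-SY5Y and 6.31, 6.34 and 6.27 in SY5Y-TR1 cells, at the background level in both, with a difference of 0.04 on the log2 scale (95% confidence interval -0.11 to 0.18).

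NDN and MAGEL2 encode proteins of the MAGE family, lie side by side in the Prader-Willi region and have 1 probe set each. NDN, which restrains division in neurons, read 4.88, 5.15 and 4.86 against 4.99, 4.96 and 4.83. MAGEL2, which acts with ubiquitin ligases in protein recycling, read 3.77, 3.91 and 3.69 against 3.72, 3.78 and 3.61. The lines overlapped for both genes, and since every value lay under the background level no fold is given.

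Over all 28 probe sets of the 8 members, 7 were called lower, 1 higher and 20 did not pass. Of 54613 probe sets on the arrays, 4.58% were called lower and 3.79% higher.

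**Figure D2:**
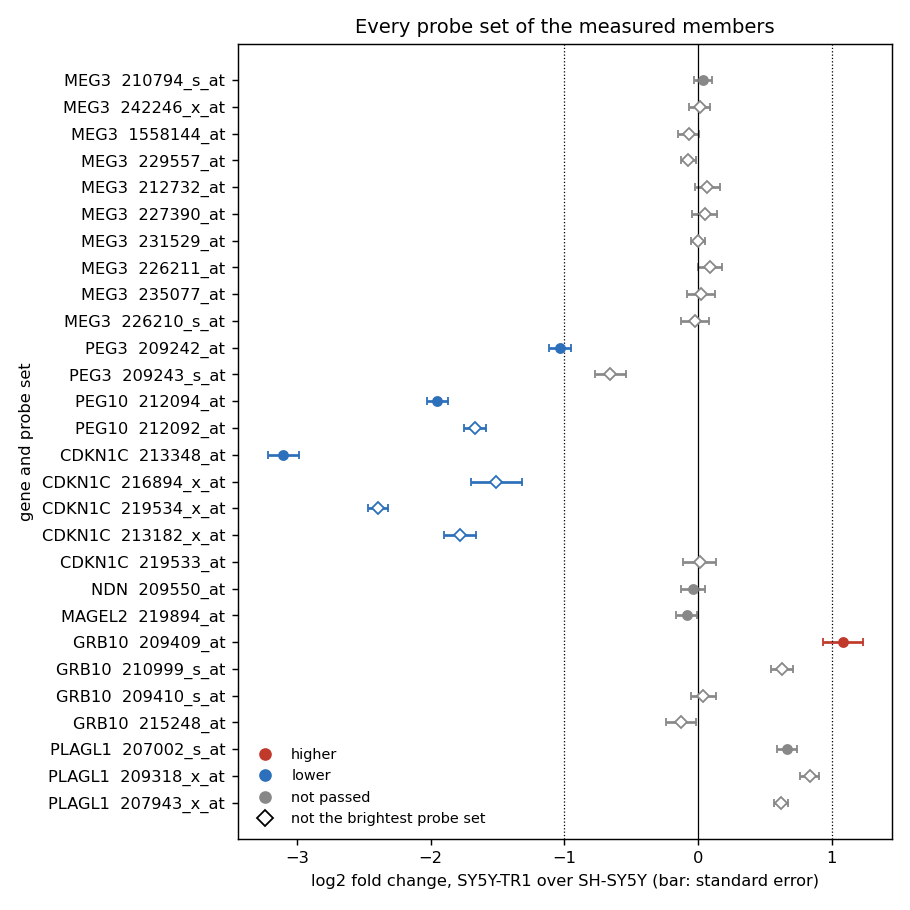
Log2 fold change of SY5Y-TR1 over SH-SY5Y (x axis) for each of the 28 probe sets of the measured members, where bars are standard errors over 3 arrays per line; each gene's brightest probe set is a filled circle and its others are open diamonds, coloured by call, and 2-fold is dotted. The PEG10 probe sets both lie beyond 2-fold, 4 of 5 for CDKN1C do, and the 10 for MEG3 gather around 0.

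The probe sets of H19 and IGF2 can be described under their joint names. H19 is a maternally read long non-coding RNA from which the microRNA gene MIR675 is cut, and in RefSeq MIR675 lies inside H19. The brighter of the probe sets listed under MIR675 and H19 read 12.33, 12.41 and 12.30 in SH-SY5Y and 8.38, 8.23 and 8.48 in SY5Y-TR1 cells. It was 15.8-fold lower (log2 fold change -3.98, standard error 0.08, limma adjusted p = 4.02e-08 over all probe sets). The dimmer one read 9.09, 9.17 and 9.22 against 5.52, 5.54 and 5.45, which is at least 7.15-fold lower since SY5Y-TR1 lay under the background level. In both probe sets the lines stood apart without overlap. Both names end in a mark of possible cross-hybridization.

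IGF2 encodes the fetal insulin-like growth factor and is paternally read; INS-IGF2 is a read-through transcript that spans it. The brightest probe set listed under both read 7.81, 8.25 and 8.12 in SH-SY5Y and 4.10, 5.43 and 4.86 in SY5Y-TR1 cells, at least 3.33-fold lower (log2 fold change -3.27, standard error 0.31, limma adjusted p = 9.31e-05). The SY5Y-TR1 arrays varied among themselves here, with an SD of 0.67, though all lay under the background level. The other 2 probe sets of this pair did not pass, at log2 fold changes of -0.67 and -0.33, and lay near or under the background level in SH-SY5Y. A probe set shared by ZIM2 and PEG3 was under it in both lines. None of these values can be assigned to 1 of the joined transcripts, and they were not counted among the 8.

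**Figure D3:**
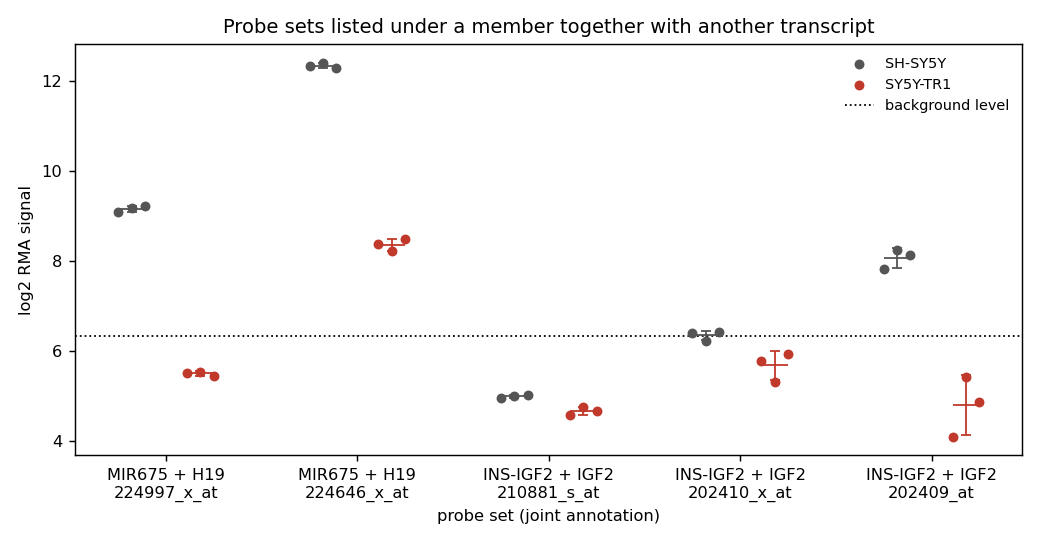
Log2 RMA signal (y axis) of the probe sets listed under MIR675 and H19 or under INS-IGF2 and IGF2 on each array; each point is 1 array (3 per line), with mean and SD as bars, and 6.33, the background level, is dotted. The MIR675 and H19 probe sets and the brightest for INS-IGF2 and IGF2 drop between the lines, from 12.35 to 8.36 in the first, and the dimmest lies under the dotted line throughout.

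The mature products of MIR675 are shown because the most strongly lowered of the joint probe sets carry its name, with the seed (bases 2 to 8) in capitals. RefSeq places them on chromosome 11, minus strand, of GRCh38.p14, at chr11:1996800-1996822 and chr11:1996768-1996787. Their seeds differ. The arrays do not measure the mature microRNAs.
hsa-miR-675-5p: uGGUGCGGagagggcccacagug
hsa-miR-675-3p: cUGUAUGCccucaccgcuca

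RefSeq promoter windows (GRCh38.p14, 250 bases before to 50 after an annotated start) were found for 6 of the 10 members, and none for IGF2, PEG3, PEG10 and CDKN1C. Imprints rest on methylated CpG, so CpG are in capitals in the windows below, which were chosen because PLAGL1 has both a CpG-rich and a CpG-poor start and because, of the members' own and joint probe sets, those named for H19 had the largest log2 fold changes. The median of 35116 windows was 14 CpG. GRB10 also has both kinds of start, as its 5 windows, which are not printed, held 3 to 49 CpG. The PLAGL1 window at chr6:144008210-144008509 (minus strand) held 39 CpG, more than 91.3% of windows did, the one at chr6:143965429-143965728 (minus strand) held 3, and that of H19 at chr11:2001217-2001516 (minus strand) held 6. The palindrome GGGGCCCC, a sequence bound by PLAGL1, was searched in these windows. It was found in 2 of the 16 member windows, 1 of them the CpG-rich PLAGL1 window and the other that of NDN, and in 1.95% of all windows. Neither methylation nor start site use was measured, so the windows describe sequence only.
PLAGL1, CpG-rich: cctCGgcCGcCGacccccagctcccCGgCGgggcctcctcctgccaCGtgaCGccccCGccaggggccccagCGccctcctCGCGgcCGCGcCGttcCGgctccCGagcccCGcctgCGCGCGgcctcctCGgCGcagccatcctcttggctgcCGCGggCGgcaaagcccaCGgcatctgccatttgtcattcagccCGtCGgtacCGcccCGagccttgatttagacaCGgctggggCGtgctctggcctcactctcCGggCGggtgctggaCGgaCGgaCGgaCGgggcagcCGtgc
PLAGL1, CpG-poor: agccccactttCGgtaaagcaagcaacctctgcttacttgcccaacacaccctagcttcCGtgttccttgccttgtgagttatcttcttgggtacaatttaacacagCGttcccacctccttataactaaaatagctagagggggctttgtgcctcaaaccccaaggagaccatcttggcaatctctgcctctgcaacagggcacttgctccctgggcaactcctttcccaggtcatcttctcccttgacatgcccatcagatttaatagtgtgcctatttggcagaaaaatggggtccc
H19: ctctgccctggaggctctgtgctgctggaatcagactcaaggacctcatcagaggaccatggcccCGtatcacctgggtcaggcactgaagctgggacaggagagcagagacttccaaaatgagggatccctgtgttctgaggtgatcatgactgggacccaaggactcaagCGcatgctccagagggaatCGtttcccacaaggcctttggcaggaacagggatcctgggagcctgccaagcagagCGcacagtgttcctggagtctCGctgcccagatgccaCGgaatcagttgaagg

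To ask whether genes of 1 imprinted domain changed by the same amount, each member was set beside a neighbour, and the difference of their log2 fold changes was tested by an exact two-sided permutation over the arrays. In RefSeq no other protein-coding gene lies between a member and its neighbour, except that 1 lies between CDKN1C and PHLDA2. Values were obtained for 6 of 8 pairs, and with 3 arrays in each line the smallest p this exact test can give is 0.1, which Benjamini-Hochberg adjustment over the 6 pairs turns into 0.12. No pair could therefore pass. Where a gene was under the background level in 1 line, the difference is also given with values raised to that level, and none is given for the PLAGL1 and HYMAI pair or for NDN and MAGEL2, where HYMAI or both genes were under it on all arrays.

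CDKN1C and PHLDA2, a placental growth restrictor, are both read from the maternal copy of 1 cluster and changed in opposite directions. PHLDA2 was 6.60-fold higher (8.80 ± 0.11 in SH-SY5Y and 11.52 ± 0.11 in SY5Y-TR1, SD, n = 3 arrays each, adjusted p = 2.53e-07 from limma), through 1 of its 3 probe sets. The changes differed by -5.82 on the log2 scale as measured (standard error 0.10, exact permutation p = 0.1) and by -5.09 with values raised to the background level, since CDKN1C was under it in SY5Y-TR1. The difference was -3.36 without probe sets of shared sequence and -2.95 with all probe sets averaged. KCNQ1OT1, the antisense RNA of the same cluster, read 5.14 to 5.59 and was under the background level on all arrays.

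PEG10 shares a promoter region with SGCE, which encodes a sarcoglycan, and both are read from the paternal copy. SGCE read 10.87, 10.84 and 10.80 in SH-SY5Y and 11.41, 11.27 and 11.33 in SY5Y-TR1 cells, a log2 fold change of 0.50 that did not pass, so that the pair differed by -2.45 (standard error 0.13, exact permutation p = 0.1). In the same cluster the actin-binding gene PPP1R9A was 3.48-fold lower, by 2 of its 4 probe sets and with a SY5Y-TR1 mean of 6.26, under the background level. The protease inhibitor gene TFPI2 was 2.08-fold lower.

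MEG3 and DLK1 are read from opposite copies of 1 cluster. DLK1, a Notch-related ligand, fell from 11.95 ± 0.03 to 3.59 ± 0.45 (SD, n = 3 arrays each), at least 49.2-fold, through 1 of its 2 probe sets, while MEG3 hardly exceeded the background level anywhere. The difference between their log2 fold changes was 8.40 as measured (standard error 0.27, exact permutation p = 0.1), 5.61 with values raised to the background level, 4.28 with all probe sets averaged and 0.11 without probe sets of shared sequence. DDC, the aromatic amino acid decarboxylase gene beside GRB10, was at least 31.6-fold lower, through both of its probe sets. As GRB10 was under the background level in SH-SY5Y and DDC in SY5Y-TR1, the difference of 7.62 as measured (standard error 0.29, exact permutation p = 0.1) was 5.12 with values raised to that level, and it was 5.03 with all probe sets averaged.

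The PLAGL1 neighbour HYMAI, a non-coding RNA that shares its imprinted start, read 3.41 to 3.65 on all arrays, under the background level, so that its change could not be set against that of PLAGL1.

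**Figure D4:**
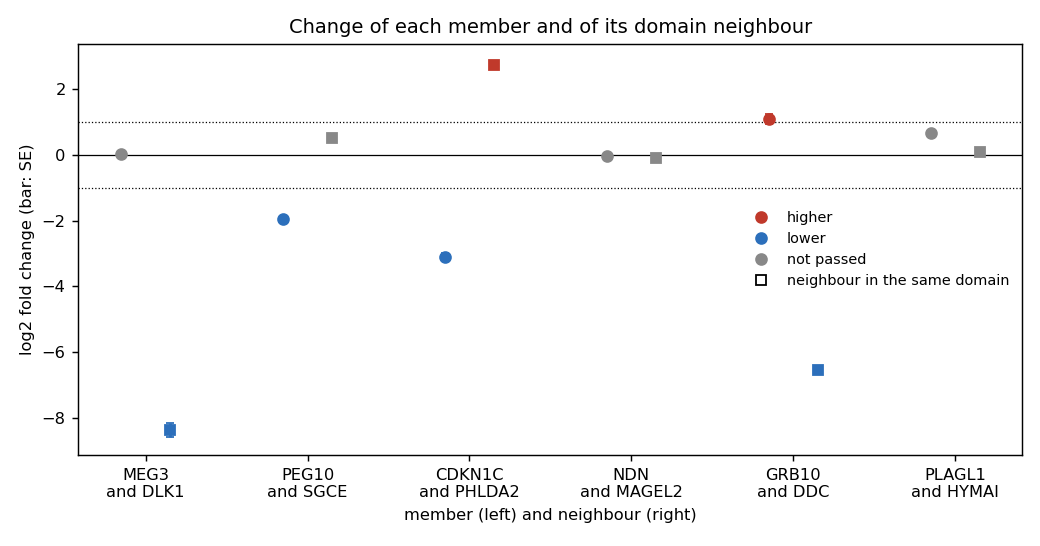
Log2 fold change of SY5Y-TR1 over SH-SY5Y (y axis) for 6 members (circles) and their domain neighbours (squares), where bars are standard errors over 3 arrays per line, often smaller than the symbol; symbols are coloured by call and 2-fold is dotted. CDKN1C and PHLDA2 lie on opposite sides of 0, at -3.10 and 2.72; NDN, MAGEL2 and HYMAI were under the background level on all arrays, so their places near 0 show no measured change.

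Other genes of the imprinted clusters and of the members' pathways were taken from written lists. Of 19 measured neighbours in the members' domains, 1 was higher, 4 were lower and 14 did not pass (median log2 fold change -0.03). Of 17 imprinted genes elsewhere, 3 were higher, 4 lower and 10 did not pass (median 0.14). WT1, a transcription factor of kidney and mesothelium, was at least 13.0-fold higher, at 3.71 ± 0.41 in SH-SY5Y and 10.02 ± 0.09 in SY5Y-TR1 (SD, n = 3 arrays each). BLCAP, a gene whose product restrains growth, was 2.44-fold higher. DIRAS3, a RAS-related growth suppressor, was called higher as well but lay under the background level in SH-SY5Y, with a mean of 6.23 in SY5Y-TR1, so no fold is given. NNAT, a membrane proteolipid gene of developing neurons, was 3.71-fold lower, with a SY5Y-TR1 mean of 6.12. MEST, a hydrolase-like gene of fetal tissue, was 2.25-fold lower and CPA4, a carboxypeptidase gene, 2.24-fold lower.

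Among 17 partners of IGF2 and GRB10, 2 were higher, 2 lower and 13 did not pass (median 0.06). IGF1R, the receptor that carries the IGF2 growth signal, was 2.10-fold lower, a call made by 1 of its 5 probe sets. IRS1, its docking protein, was at least 1.69-fold lower by 1 of 3. IGFBP6, a binding protein that prefers IGF2, was 3.59-fold higher and IGF2BP2, which binds IGF2 mRNA, 2.57-fold higher through 1 of 2 probe sets. IGF2R, the scavenger receptor that clears IGF2 and an imprinted gene in mice, stands in both lists. It read 10.11, 10.25 and 10.12 against 10.75, 11.36 and 11.06, without overlap, and did not reach the fold limit (log2 fold change 0.90, standard error 0.15).

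Of 13 cell-cycle partners of CDKN1C, 1 was higher, 5 lower and 7 did not pass (median -0.72). Its relatives of the CIP/KIP inhibitor family moved apart, since CDKN1A, which encodes p21, was 7.43-fold higher (9.83 ± 0.14 against 12.72 ± 0.0041, SD, n = 3 arrays each) and CDKN1B, which encodes p27, 2.48-fold lower. SKP2, the ubiquitin ligase subunit that marks these inhibitors for degradation, was 3.50-fold lower, and CCNE2, a cyclin that p57 inhibits together with its kinase, 2.79-fold lower. None of 12 partners of NDN, MAGEL2 and PEG3 reached the fold limit (median 0.05). Neither limma nor the methods' t-test with that limit could therefore call any of them. At any fold, 9 of the 12 had an unadjusted limma p under 0.05.

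Of 16 genes listed as imprint maintenance factors, 6 were lower, none was higher and 10 did not pass (median -0.75). The list mixes genes that set or copy DNA methylation with TET genes, so its counts do not describe 1 activity. TET1, which oxidizes methylated cytosine, was at least 4.08-fold lower, EZH2, the histone methyltransferase of Polycomb, 4.18-fold lower and TET3 3.61-fold lower through 1 of 3 probe sets. DNMT3A, DNMT3B and UHRF1, which set or copy DNA methylation, were 2.99-fold, 2.87-fold and 2.94-fold lower. DNMT1, the maintenance methyltransferase, did not reach the fold limit (log2 fold change -0.94, standard error 0.07). The lower neuroblast markers given above moved in the same comparison as these lists, and their part in the members' changes was not tested.

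**Figure D5:**
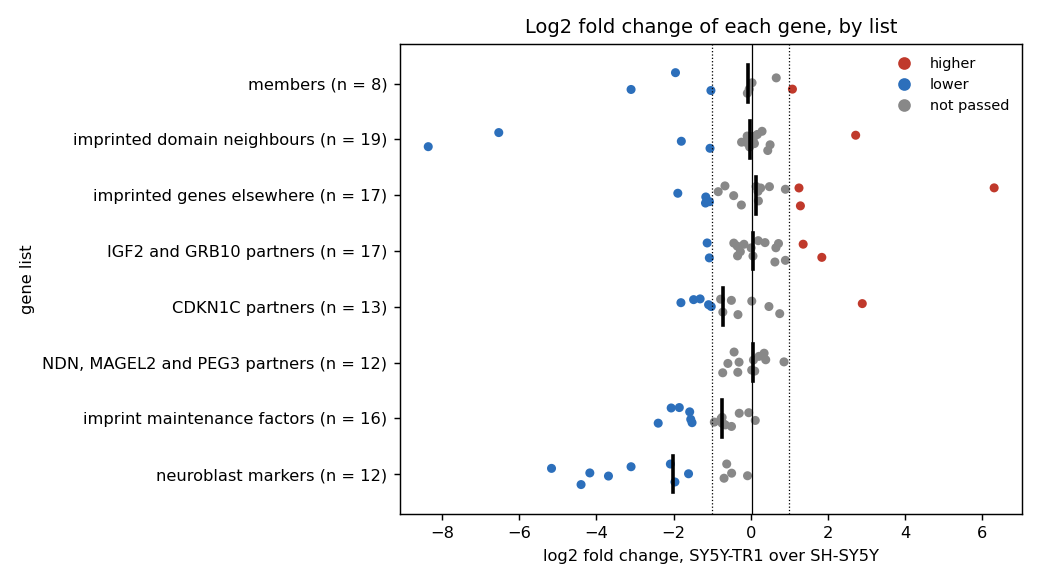
Log2 fold change of SY5Y-TR1 over SH-SY5Y (x axis) for each measured gene of 8 lists (rows, jittered vertically); colours show the call, thick bars the median of a list, the thin line the median of all genes and dotted lines 2-fold. The 16 imprint maintenance factors lie to the left of 0 with 1 exception and have a median of -0.75, whereas the 8 members lie on both sides. That exception, another factor near 0, NDN and MAGEL2 were under the background level on all arrays, so their sides of 0 show no measured change.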

How the data were processed

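Log2 signals of 6 arrays were deposited by the authors after RMA in Affymetrix Expression Console, as the submitters' processing notes name it, of a version not stated. This step corrected the background, quantile-normalized the arrays and summarized each probe set. Scanner files were not used here. The fit held 54613 probe sets without the 62 controls, and 41091 of them carried 1 gene symbol, 1801 several and 11721 none. The brightest probe set, by its mean signal, stood for a gene. Both lines entered a limma model (version 3.58.1, R 4.3.3; lmFit, then eBayes) with no term for the replicate number, fitted over all genes, and the other probe sets came from a fit over all probe sets. The fit was tested on simulated data.

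The members and the 12 other gene lists were chosen with earlier results of these data known. Besides those described in the report they hold 20 measured housekeeping genes and 35 background genes, of which none was called (14 and 2 had an unadjusted limma p under 0.05) and 4 of the latter lie above the background level by construction. Named are the members, their domain neighbours and up to 3 called genes in each direction per list. The grouping by parental copy, IGF2R, KCNQ1OT1 and DNMT1, and the fold values of DNMT3A, DNMT3B and UHRF1, were added after their values were seen. Where a line lay at or under the background level on its 3 arrays, the fold is the brighter mean over that level. Folds come from differences of log2 means. Alternatives were other probe set choices, scaling, a filter or floor at the background level, a replicate block, a variance trend, the methods' t-test, other limits and each array left out.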

Additional observations from a re-analysis of the deposited data

How the results depend on the processing

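CDKN1C and PEG10 were called lower under every alternative run. The members called lower numbered 3, and 2 with all probe sets averaged or without SY5Y-TR1 replicate 1, when PEG3 lost its call. The 1 member called higher became 0 with all probe sets averaged, with the filter on dim probes or with values raised to the background level, and 2 with a fold limit of 1.5, which PLAGL1 passed. With each array left out in turn the number called higher was 0 to 1, the number called lower 2 to 3, and that over all genes 2236 to 2281 against 2245. A fold limit of 1.5 gave 4333 genes, and the fit over all probe sets called 4573 probe sets. No pairing of the arrays by replicate number was seen, as the deviations of same-numbered arrays correlated at 2e-04 to 0.03. With 3 arrays per line this cannot exclude that samples were prepared in pairs. The replicate block left 1 member higher, 3 lower and 2245 genes called. In this balanced design a block leaves each log2 fold change as it was, and the fold limit decided the calls. These counts could therefore hardly change and do not test for pairs. Among the lists, a fold limit of 1.5 raised the imprint maintenance factors called lower from 6 to 12 and the IGF2 and GRB10 partners called higher from 2 to 6. Without probe sets of shared sequence no domain neighbour and no CDKN1C partner was called higher, and 1 imprinted gene elsewhere was. Of the called genes named here, CDKN1A, DIRAS3, NNAT, EZH2 and DNMT3B have only 1 probe set each, of shared sequence. They therefore dropped out of this alternative and were not tested in it. The probe set that stood for WT1 was left out as well. In this alternative 4 imprint maintenance factors were called lower against 6, 7 neuroblast markers against 8 and 4 CDKN1C partners against 5. With all probe sets averaged 1 partner of IGF2 and GRB10 was higher and none lower, and with values raised to the background level 1 was lower. Of the partners of NDN, MAGEL2 and PEG3, 1 was called lower with all probe sets averaged or without those of shared sequence, and 1 was higher and 2 were lower at a fold of 1.5. PLAGL1 has no value without probe sets of shared sequence. Centring on housekeeping genes put 43.3% of calls in the higher direction against 47.2%. The number of arrays limits the precision.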
